A study of Mus musculus with 21 samples.

Results

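The 135 lysosome genes described here are the protein-coding rows of the deposited gene table, 135 of 21522 such rows and of 78317 rows in all, that the table itself assigns to the lysosome pathway of the Kyoto Encyclopedia of Genes and Genomes (KEGG). The RNA-seq data cover 21 samples from the E14 line, a mouse embryonic stem cell line, 3 for each of 7 groups. The groups were cells collected at days 3, 5 and 7 of differentiation with pyridoxine (vitamin B6, here VB6) at 20 µM, cells collected at the same days with vehicle, and untreated cells in standard culture (ES). No genetic change is named for any group, and the labels say neither how differentiation was started nor if separate cultures were behind the 3 replicates, so that the p-values below measure the spread between these libraries, which may be technical. By role the genes were 58 hydrolases and their activators (19 proteases, 18 glycosidases, 8 sulfatases, 9 lipid hydrolases and activators, and 4 nucleases and phosphatases), 24 membrane proteins, 10 subunits of the proton pump, 31 sorting and transport proteins, 2 soluble proteins that are not classed as hydrolases and 10 others. Sumf1, a sulfatase modifying factor, was counted with the sulfatases. Of the hyaluronidase genes, Hyal1 was counted with the glycosidases. Hyal2, Hyal3, Hyal4, Hyal5 and Hyal6 were given no role and stand with the others, so the class of hydrolases does not hold them. Of the 135, 121 had enough counts to be tested.

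Lysosomes are the acidic compartments in which cells break down proteins, glycans, lipids and nucleic acids delivered by endocytosis and autophagy. A proton pump, the V-type ATPase, keeps them acidic, heavily glycosylated membrane proteins line them, and most of their hydrolases are tagged with mannose 6-phosphate in the Golgi and carried there by receptors, adaptor complexes and clathrin. Many lysosome genes carry the hexamer CACGTG near their start sites, the core of a motif bound by the transcription factors TFEB and TFE3, and the visceral endoderm of the early mouse embryo is known for large lysosomes that digest maternal protein.

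The CACGTG hexamer was looked for in the promoters of these genes. RefSeq promoter windows of the GRCm38.p6 build (250 bases before to 50 bases after a start site) were at hand for 106 of the 135 genes. The hexamer was in the windows of 24 of them, or 22.6%, against 8.91% of 17491 protein-coding genes of the same table. Its extension TCACGTGA was in 10 of them, or 9.43%, against 1.41%. Both read the same on either strand, and the longer contains the shorter. By role the hexamer was found in 5 of 14 protease genes, 3 of 6 sulfatase genes, 4 of 14 glycosidase genes, 5 of 19 membrane protein genes, 2 of 7 proton pump genes and 5 of 26 sorting and transport genes, and in 0 of 8 genes of lipid hydrolases and activators. The 100 bases before the start site are shown for 4 genes that carry it and recur below, with capitals marking CACGTG, or TCACGTGA where it is extended.
Lamp1 (a lysosomal membrane glycoprotein, chr8:13159061-13159160, plus strand, 4 hexamers): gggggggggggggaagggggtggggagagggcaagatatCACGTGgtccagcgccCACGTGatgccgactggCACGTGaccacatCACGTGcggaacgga
Mcoln1 (a lysosomal calcium channel, chr8:3500419-3500518, plus strand, 2 hexamers): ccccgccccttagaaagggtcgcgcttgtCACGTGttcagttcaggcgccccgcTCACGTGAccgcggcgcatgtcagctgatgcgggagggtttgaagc
Ctsd (the protease cathepsin D, chr7:142387828-142387927, minus strand, 1 hexamer): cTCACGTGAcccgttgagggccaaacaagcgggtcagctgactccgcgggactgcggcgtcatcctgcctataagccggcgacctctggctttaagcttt
Atp6v0b (a membrane subunit of the proton pump, chr4:117887330-117887429, minus strand, 2 hexamers): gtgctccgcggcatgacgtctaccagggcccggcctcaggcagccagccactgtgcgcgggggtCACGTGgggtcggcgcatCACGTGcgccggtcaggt
A match describes these letters only and is not evidence of binding.

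The libraries held 15882380 to 21629730 expected counts (median 17972485), and 122 to 125 of the 135 genes were detected in each. A count of 3 corresponded to 0.139 to 0.189 CPM, the count scaled to library size. As a check of the labels, the summed CPM of 6 pluripotency markers was 3050 to 3349 in the ES libraries, 1331 to 1467 in vehicle at day 3, 505 to 528 at day 5 and 284 to 323 at day 7. The groups differed in a property of the libraries that touches the VB6 comparisons at days 5 and 7. The fragment length implied by the deposited values was 266 ± 7.77 nt in the VB6 day 7 libraries and 227 ± 8.69 nt in the vehicle day 5 libraries (SD, n = 3 each), while the other 5 groups averaged 307 to 312 nt. The share of counts from ribosomal protein genes was 3.43% and 3.54% in those same groups, against 5.79 to 6.99% in the others, and that of mitochondrial genes was 3.32% and 4.33%, against 1.76 to 2.79%. Comparisons that contain 1 of these groups are therefore also given with each library's trend over GC content and effective length removed (the corrected fit), which could be done for 119 of the 121 tested genes. Whether fragment length or the treatment or day moved a gene cannot be told apart in these comparisons, because fragment length differed between whole groups. The correction removes only a trend over GC content and length, so this also holds for genes that keep their call under it. Counts by promoter hexamer and lists of genes outside the 135 are given without correction.

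Of the 4 classes summed over their genes, the hydrolases had the largest ratio of vehicle day 7 to ES. Summed TPM, transcripts scaled to gene length and to a fixed library total, of the 58 hydrolases and activators were 1851, 1578 and 1596 in the ES libraries, 1561, 1573 and 1720 in vehicle at day 3, 3224, 3014 and 2935 at day 5, and 4347, 4146 and 3816 at day 7. No vehicle library of day 5 or 7 overlapped with those of day 3 or ES, whereas day 3 and ES overlapped. The 24 membrane proteins summed to 1038 ± 14.4 TPM in ES, 900 ± 26.3 in vehicle at day 3, 2145 ± 69.8 at day 5 and 1929 ± 56.3 at day 7. Subunits of the proton pump summed to 592 ± 30.4, 652 ± 19.1, 713 ± 22.9 and 849 ± 47.6 TPM in the same order, and sorting and transport proteins to 1288 ± 95.1, 1161 ± 31.8, 1686 ± 10.7 and 1688 ± 33.1 TPM (SD, n = 3 each). Vehicle day 5 is a group with short fragments. The TPM of all genes shifted by a median log2 difference of 0.24 from day 3 to day 5 and -0.13 from day 5 to day 7. The part of that shift in the day 5 sums was not tested. With VB6 the hydrolases reached 5845, 5537 and 5083 TPM at day 7, all above the 3 vehicle libraries of that day, and membrane proteins reached 2597 ± 130 TPM against 1929 ± 56.3 TPM in vehicle. At that day the TPM of all genes also shifted, by a median log2 difference of 0.19, and all lysosome genes together took 1.14% of TPM with VB6 against 0.878% with vehicle, but 1.47% of counts against 1.29%. No test was made on these sums, because the genes were picked with results known. In TPM, a scale that allows for gene length, the gene of highest mean over all 21 libraries was Ctsl among the hydrolases, Cd63 among the membrane proteins, Atp6v0c in the pump and Clta in sorting. The order differed between groups. In ES, Lamp1 (242 to 275 TPM) lay above Cd63 (94.6 to 124 TPM), and Ctsd (181 to 220 TPM) above Ctsl (172 to 176 TPM). In bulk RNA, fewer cells of a type and less RNA per cell cannot be told apart.

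**Figure D1:**
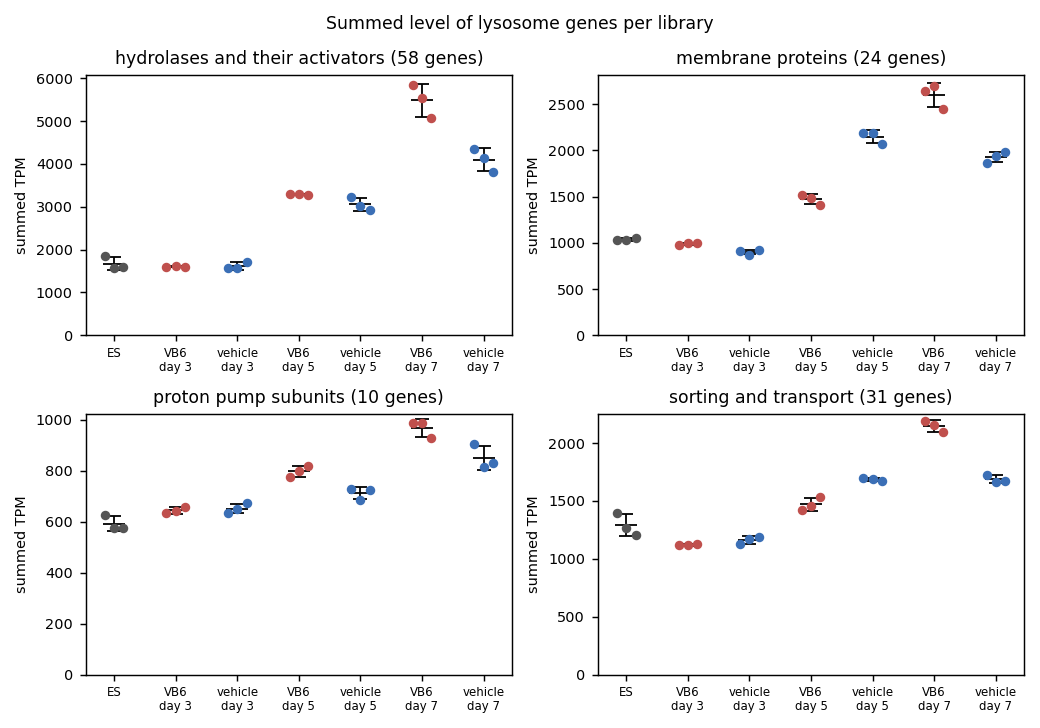
Summed TPM of 4 classes of lysosome genes in each of the 21 libraries (points), with the mean and SD of each group of 3 (black); grey, ES; red, VB6; blue, vehicle. In the panel of hydrolases the VB6 day 7 libraries lie at 5083 to 5845 TPM, above the vehicle day 7 libraries at 3816 to 4347 TPM and the ES libraries at 1578 to 1851 TPM.

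Of the 135 genes, 14 were too low to test. They were Psapl1, Lamp3, Dnase2b, Hyal4, Hyal5, Hyal6, Spam1, Ctse, Ctsg, Ctsj, Ctsk, Ctsm, Ctss and Atp6v0d2. Several are known from restricted cell types elsewhere, such as Ctsk and Atp6v0d2 from osteoclasts and Ctss from antigen-presenting cells. Their counts over all 21 libraries ran from 0 to 96, 5 of them (Dnase2b, Hyal4, Hyal5, Spam1 and Ctsj) had no count at all, and the highest group mean was 0.475 CPM, for Ctsk. Among the 121 tested genes the highest group mean was found in VB6 day 7 for 52, in ES for 20, in vehicle day 7 for 20 and in vehicle day 5 for 13, while the lowest was found in ES for 44 and in vehicle day 3 for 32. No such count was made over all genes, and VB6 day 7 and vehicle day 5 are the groups with short fragments.

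Between day 3 and day 7 of the vehicle culture the lysosome genes rose as a broad group. Of the 121 genes, 88 were called higher and 15 lower at day 7 than at day 3 by edgeR's quasi-likelihood test at a Benjamini-Hochberg adjusted p under 0.05. Among all 18901 genes tested, 34.3% were called higher and 33.1% lower. The median log2 fold change was 0.53 for the 121 genes and -0.01 for all genes, and both groups of libraries had the longer implied fragments. Higher calls made up 41 of 50 tested hydrolases and activators with 4 lower, 16 of 23 membrane proteins with 3 lower, 21 of 31 sorting proteins with 6 lower and 4 of 9 pump subunits with 1 lower. These directions by class held under each scaling tried. After correction for GC content and length, 85 of the 88 kept a higher call (40% of all genes were called higher and 35.7% lower in that fit). As counted, 20 of the 24 tested genes with a CACGTG hexamer were called higher, against 49 of 71 tested genes with a promoter window and no hexamer, with no test of that difference. The order varied between comparisons. For vehicle day 5 against day 3 the higher calls were 12 of 24 and 41 of 71. For vehicle day 7 against day 5 they were 18 and 32, and for VB6 day 5 against day 3 they were 16 and 44. With VB6 against vehicle they were 17 and 29 at day 5, and 6 and 26 at day 7, with 2 and 17 lower at day 5 and 5 and 9 lower at day 7. Among all genes 31.2% were called higher and 25.5% lower at day 5, and 18.6% and 17.9% at day 7. These splits are without correction, and all but VB6 day 5 against day 3 compare groups unlike in fragment length. The part that GC content has in them was not tested.

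The first step, from ES cells to vehicle day 3, had no common direction. It called 42 of 121 genes higher and 50 lower, against 33.1% higher and 31.8% lower among all genes, with a median log2 fold change of -0.02. Glycosidases (4 higher, 11 lower of 18), lipid hydrolases and activators (1 higher, 6 lower of 8) and membrane proteins (5 higher, 13 lower of 23) were mostly lower at day 3. Sorting proteins split into 14 higher and 10 lower of 31, a direction that turned to 10 and 11 on the TPM scale. In VB6 cultures the step from day 3 to day 5, between groups of like fragment length, called 75 genes higher and 10 lower, against 29.9% and 26.4% of all genes, with a median of 0.36.

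The other steps involve a group with short fragments. Vehicle day 5 against day 3 called 71 of 121 genes higher and 25 lower (31.9% and 33.4% of all genes), or 96 and 7 on the TPM scale, on which the median of all genes moved by 0.24. The corrected fit called 72 of 119 higher and 22 lower (30.1% and 38.9% of all genes), and 59 of the 71 higher and 17 of the 25 lower calls were shared with it, while 2 of the lower calls were higher in it. Vehicle day 7 against day 5 called 60 higher and 25 lower (35.2% and 31.1%), or 35 and 42 on the TPM scale, with an all-gene shift of -0.13. The corrected fit called 65 higher and 20 lower (42.4% and 24.4%), sharing 50 of the 60 higher and 11 of the 25 lower calls, while 4 of the lower calls were higher in it and 2 of the higher ones lower. For VB6 day 7 against VB6 day 5 the counts were 70 higher and 16 lower (27.3% in either direction), or 93 and 3 in TPM, with a shift of 0.21 in the all-gene median. The corrected fit called 67 higher and 14 lower (26.7% and 32.5%) and shared 56 of the 70 higher and 8 of the 16 lower calls, with 1 call turned in each direction.

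**Figure D2:**
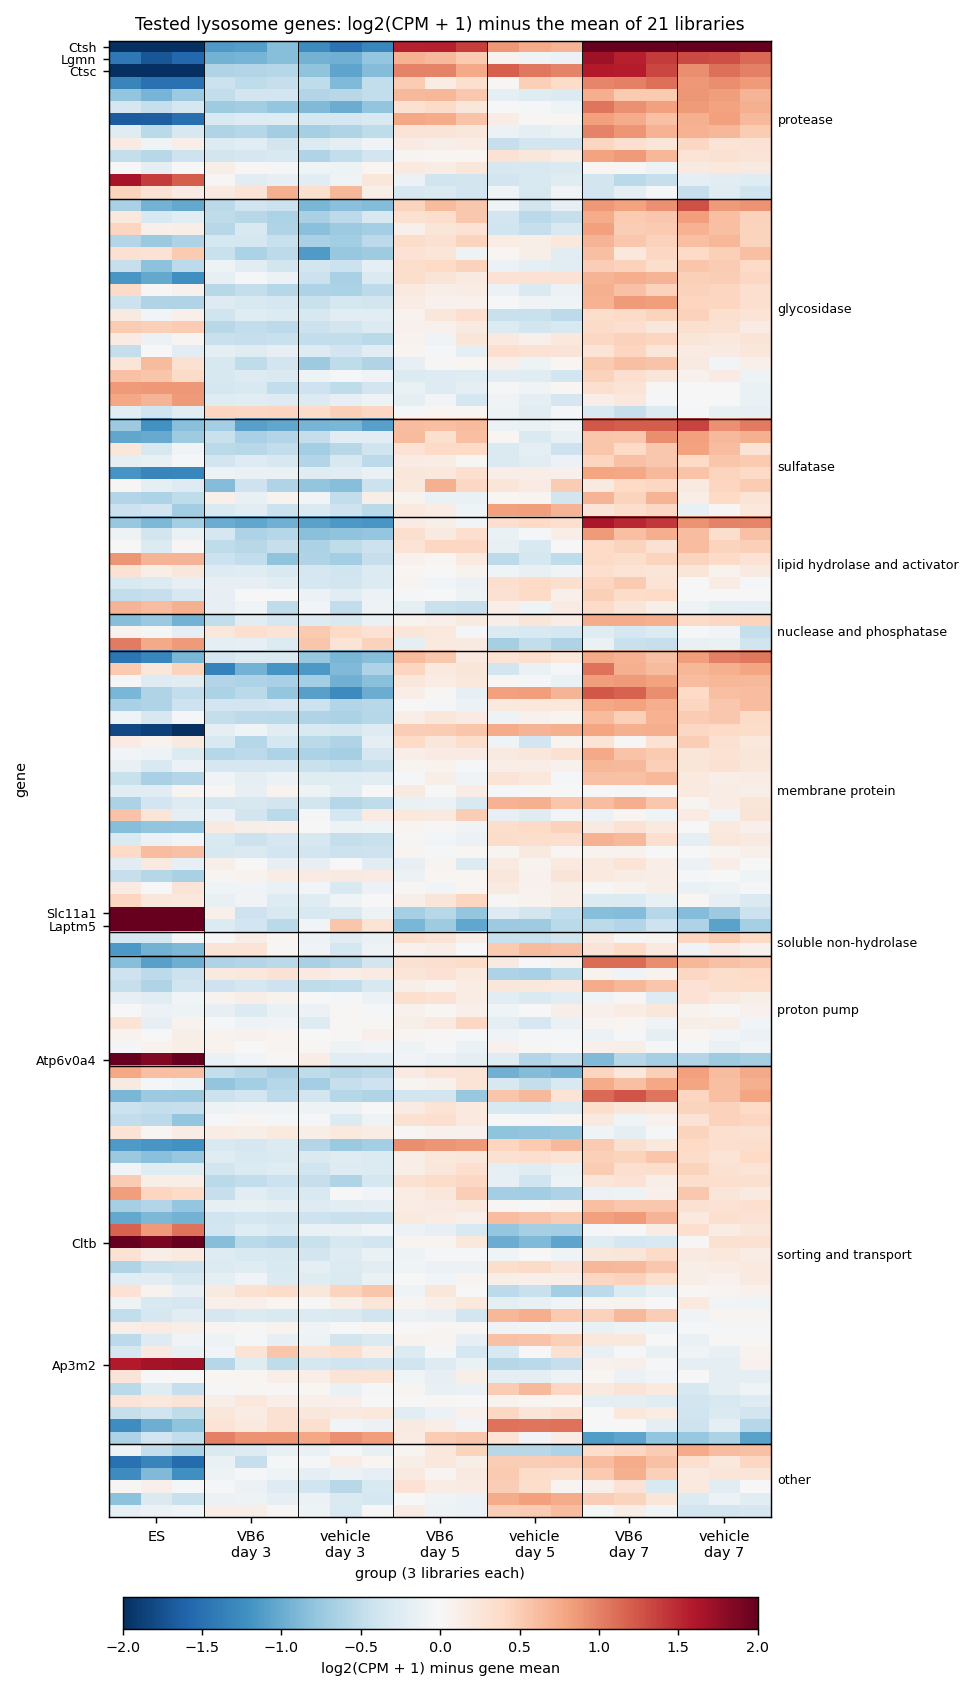
Log2(CPM + 1) of each of the 121 tested lysosome genes (rows, by role, with 8 labelled) in the 21 libraries (columns), minus the gene's mean over the libraries; red is above and blue below that mean, and the colours end at -2 and 2. The rows Ctsh, Lgmn and Ctsc run from blue in ES to red at day 7, while Slc11a1, Laptm5, Cltb, Ap3m2 and Atp6v0a4 are red in ES.

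Among the proteases, 11 of 13 tested were higher and 1 lower in vehicle at day 7 than at day 3. Ctsh (cathepsin H, a cysteine protease that trims peptides from their amino end, chr9:90054152-90076089) had 3.93, 2.51 and 2.57 CPM in ES, 34.6, 29.9 and 34.0 CPM in vehicle at day 3, 156, 143 and 136 CPM at day 5 and 412, 406 and 367 CPM at day 7. Each of these groups lay wholly above the one before it. Its log2 fold change was 3.45 ± 0.14 (SE; adjusted p = 7.8e-16) from ES to day 3 and 3.59 ± 0.10 from day 3 to day 7, a 12.04-fold rise (adjusted p = 4.3e-19, edgeR). Lgmn (legumain, an endopeptidase that cuts after asparagine and processes cathepsins, chr12:102394084-102439813) had 94.5, 77.7 and 85.8 CPM in ES, 132, 131 and 149 CPM at day 3, 269, 244 and 235 CPM at day 5 and 645, 625 and 564 CPM at day 7. It rose 4.45-fold between days 3 and 7, a log2 fold change of 2.15 ± 0.08 (adjusted p = 1.5e-16). In TPM, Ctsl had the highest level of these proteases, with 867 ± 49.0 TPM in vehicle at day 7, while Ctsh had 528 ± 60.6 TPM and Lgmn 512 ± 42.5 TPM (SD, n = 3 each), of which the last pair overlapped between libraries.

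The other cathepsins differed in when they moved. Ctsl (cathepsin L, a broad cysteine endopeptidase, chr13:64359337-64370890) had 199.6, 203 and 224 CPM in ES and 502, 503 and 514 CPM in vehicle at day 3, and then 1044, 1128 and 995 CPM at day 7. It rose at both steps, by 1.28 ± 0.07 and 1.06 ± 0.07 on the log2 scale (adjusted p = 6.3e-14 and 8.6e-13). Ctsb (cathepsin B, an endopeptidase and dipeptidase, chr14:63122462-63145923) had 194, 177 and 193 CPM in ES, 132, 123 and 141 CPM at day 3 and 443, 427 and 402 CPM at day 7, so that it was lowest at day 3. Its log2 fold change was -0.51 ± 0.06 from ES to day 3 and 1.68 ± 0.07 from day 3 to day 7 (adjusted p = 1.7e-16). Ctsd (cathepsin D, the main aspartic protease, whose promoter is printed above) had 305, 257 and 299 CPM in ES, 224, 238 and 259 CPM at day 3 and 362, 328 and 332 CPM at day 7 and a log2 fold change of 0.50 ± 0.07 over the later interval. Ctsc (the dipeptidyl peptidase that activates granule proteases) rose by 2.18 and 1.94, Ctsz (a carboxypeptidase) by 0.28 and 1.36, and Ctso by 2.21 and 2.10 at the same 2 steps. Tpp1 (a tripeptidyl peptidase) had a log2 fold change of 0.78 from day 3 to day 7. The protease called lower was Ctsw, named here after its values were seen, at or under 1.38 CPM in every library.

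**Figure D3:**
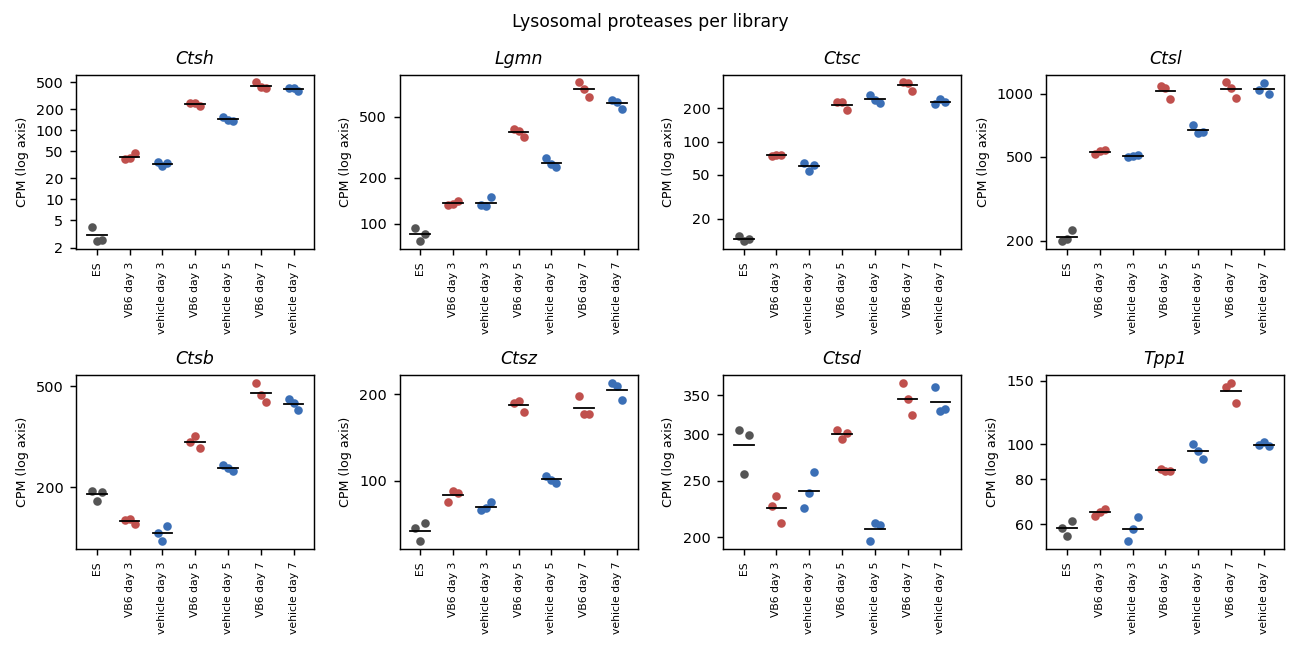
CPM of 8 lysosomal proteases in the 21 libraries on log axes, with a bar at the mean of each group of 3; grey, ES; red, VB6; blue, vehicle. Ctsh lies at 367 to 412 CPM in vehicle at day 7 and at 2.51 to 3.93 CPM in ES, and at day 5 the VB6 libraries of Ctsh, Lgmn, Ctsl, Ctsb and Ctsz lie above the vehicle libraries of that day.

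The enzymes that break down glycans rose almost throughout between days 3 and 7. All 8 tested genes of the sulfatase class, which includes the sulfatase modifying factor Sumf1, were called higher, as were 15 of 18 glycosidases with 1 lower. Galns (which removes sulfate from keratan and chondroitin sulfate) had 23.3, 16.8 and 18.5 CPM in vehicle at day 7, against 3.94, 4.03 and 3.47 CPM at day 3, a 5.12-fold rise (log2 fold change 2.36 ± 0.14, adjusted p = 7.7e-13). Naglu (an enzyme of heparan sulfate breakdown) had 31.5, 23.5 and 24.1 CPM at day 7 against 6.12, 6.56 and 6.37 CPM at day 3, a 4.15-fold rise (log2 fold change 2.05 ± 0.12). In both genes no library of day 7 overlapped with day 3. Hexa rose by 1.21 ± 0.07, Gaa (which degrades glycogen) by 1.15 ± 0.11 and Glb1 (the lysosomal beta-galactosidase) by 1.02 ± 0.09 on the log2 scale.

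At the first step Hexa had 52.2, 50.1 and 56.9 CPM at day 3 and 54.2, 48.8 and 53.1 CPM in ES, groups that overlapped. Gusb (beta-glucuronidase) went against the group, with 25.1, 22.2 and 25.5 CPM in ES, 38.4, 41.9 and 39.8 CPM at day 3 and 29.0, 26.7 and 26.3 CPM at day 7, a log2 fold change of -0.55 ± 0.07 between the days (adjusted p = 4.6e-07).

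Of 8 tested lipid hydrolases and activators, 6 were higher and 0 lower in vehicle at day 7 than at day 3. Lipa (the acid lipase that frees cholesterol and fatty acids from endocytosed lipoproteins) had 16.5, 14.8 and 17.5 CPM in ES, 13.1, 12.3 and 12.2 CPM at day 3, 36.3, 37.7 and 36.3 CPM at day 5 and 53.7, 57.8 and 56.7 CPM at day 7. It was lowest at day 3 and rose 4.48-fold from there to day 7 (log2 fold change 2.16 ± 0.08, adjusted p = 6.7e-17). Smpd1 (acid sphingomyelinase) rose by 1.40 ± 0.11, Psap (the precursor of the saposins that activate sphingolipid hydrolases) by 0.50 ± 0.05 and Asah1 (acid ceramidase) by 0.37 ± 0.07. Psap had 310.4, 275 and 299.8 CPM at day 7 and 321, 288 and 307 CPM in ES, groups that overlapped. Of the nucleases and phosphatases, Acp5 (tartrate-resistant acid phosphatase) and Dnase2a (which digests engulfed DNA) fell, by log2 fold changes of -0.76 and -0.64.

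Membrane proteins rose from day 3 to day 7 in 16 of 23 cases and fell in 3. Lamp1, whose promoter carries 4 hexamers, had 401, 362 and 409 CPM in ES, 327, 316 and 328 CPM in vehicle at day 3 and 527, 551 and 520.2 CPM at day 7, with log2 fold changes of -0.27 ± 0.05 at the first step and 0.72 ± 0.05 over the second (adjusted p = 2.4e-11). Lamp2 (needed for the fusion of autophagosomes with lysosomes, chrX:38401357-38456454) had 152, 177 and 177 CPM at day 7 against 54.0, 47.2 and 57.9 CPM at day 3, a log2 fold change of 1.67 ± 0.11 (adjusted p = 1.7e-12). Cd63 (a tetraspanin of late endosomes, chr10:128900989-128912822) had 271, 303 and 314 CPM at day 7 against 88.6, 79.3 and 83.2 CPM at day 3, a rise of 1.82 ± 0.11 (adjusted p = 3.3e-13). Laptm4a, a small protein spanning the membrane, rose by 1.06 ± 0.06, and Litaf, which acts in endosomal trafficking, was among the members called higher.

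Transporters and channels were less uniform. Npc1, which moves cholesterol out of the lysosome, rose at both steps, by 1.62 ± 0.06 and 0.70 ± 0.05, and its soluble partner Npc2 by 0.59 ± 0.07 at the second. At the first step Npc2 was not called, with 166, 153 and 163 CPM at day 3 against 140.0, 141 and 176 CPM in ES, groups that overlapped. The cystine exporter Ctns rose by 0.35 and 0.40, and Scarb2, an abundant protein of the lysosomal membrane, had log2 fold changes of -0.96 ± 0.06 at the first step and 0.47 ± 0.06 over the second. Mcoln1, with 2 hexamers in its promoter, had 40.9, 41.9 and 44.4 CPM at day 7 and 43.1, 36.2 and 41.2 CPM at day 3, which overlapped. Both Slc11a1 and Laptm5, known from blood cells, fell. Slc11a1 (a metal transporter of phagosomes) had 0.648, 0.662 and 0.895 CPM at day 3 against 16.2, 12.2 and 14.5 CPM in ES, a log2 fold change of -4.26 ± 0.28, and Laptm5 had 4.59, 7.52 and 6.001 CPM against 48.7, 40.4 and 44.5 CPM, -2.88 ± 0.14 (adjusted p = 2.8e-14). Cd68, often used as a macrophage marker, had 27.8, 22.4 and 26.4 CPM in ES, 8.01, 9.81 and 12.002 CPM at day 3 and 30.6, 31.7 and 33.6 CPM at day 7. Of 8 macrophage markers, summed at 4.20 to 5.17 CPM in vehicle at day 7 and 0.131 to 0.363 CPM in ES, 5 were at 0 in all day 7 libraries, and their part in the change of Cd68 was not tested. Csf1r alone had a mean of 4.70 CPM in vehicle at day 7.

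The a subunits of the proton pump moved in different directions. Of 9 tested subunits 4 were higher and 1 lower in vehicle at day 7 than at day 3. The a subunit, which carries protons through the membrane sector, has 4 isoforms. Atp6v0a1 had 57.9, 49.3 and 52.8 CPM in ES, 66.5, 70.8 and 81.8 CPM at day 3, 119.7, 106 and 111 CPM at day 5 and 167, 159 and 156 CPM at day 7, and rose by 0.45 ± 0.07 and then 1.13 ± 0.07 (adjusted p = 1.7e-12). Atp6v0a4, known from the kidney, had 18.5, 13.995 and 17.0 CPM in ES, 3.65, 2.59 and 2.58 CPM at day 3 and 1.77, 1.55 and 1.64 CPM at day 7, with log2 fold changes of -2.49 ± 0.16 and -0.82 ± 0.20. Atp6v0a2 had 33.0, 31.7 and 33.2 CPM at day 7 and 28.6, 31.7 and 30.9 CPM at day 3, and Tcirg1 (the a3 isoform, known from osteoclasts) had 36.1, 36.1 and 31.9 CPM and 27.5, 34.0 and 34.0 CPM, neither of them called in either fit. The rotor subunits Atp6v0c and Atp6v0b rose by 0.23 ± 0.05 and 0.26 ± 0.07, and the accessory protein Atp6ap1 by 0.79 ± 0.06. Atp6v0d1, with 111, 104 and 99.4 CPM at day 7 against 109, 110.2 and 116 CPM at day 3, and Atp6v1h, with 83.4, 77.5 and 82.1 CPM against 86.0, 78.9 and 81.3 CPM, were not called as counted, while the corrected fit called Atp6v0d1 lower and Atp6v1h higher.

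Genes of sorting and transport moved in both directions. The larger mannose 6-phosphate receptor Igf2r rose by 0.45 ± 0.05 and 0.53 ± 0.05 at the 2 steps, and Sort1 (sortilin, another sorting receptor) by 0.52 ± 0.05 and 0.62 ± 0.05. The smaller receptor M6pr had 139, 143 and 149 CPM at day 7 against 192, 192 and 181 CPM at day 3, a log2 fold change of -0.39 ± 0.04 (adjusted p = 5.4e-08). Gnptab, which encodes the enzyme that starts the mannose 6-phosphate tag, had 37.7, 39.5 and 36.5 CPM in ES, 61.2, 59.5 and 60.7 CPM at day 3 and 39.4, 42.8 and 40.2 CPM at day 7, rising by 0.67 ± 0.08 and then changing by -0.57 ± 0.08. Clathrin heavy chain Cltc rose by 0.70 ± 0.05, and light chain Cltb fell to 7.59, 8.43 and 7.95 CPM at day 3, against 48.6, 42.9 and 46.0 CPM in ES (log2 fold change -2.52 ± 0.10). Ap3m2 and Ap3b2, the forms of the AP-3 adaptor known from neurons, moved apart at the first step, by -2.24 ± 0.12 and 1.46 ± 0.13, and Ap3b2 changed by -1.83 ± 0.14 between days 3 and 7.

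VB6 at day 3 touched few lysosome genes. Of 121 genes, 7 were higher and 2 lower with VB6 than with vehicle, or 5.8% and 1.7%, where 1.49% of all genes were called higher and 2.77% lower. Cd63 had 119, 124 and 123 CPM with VB6 against 88.6, 79.3 and 83.2 CPM with vehicle, a log2 fold change of 0.54 ± 0.11 (adjusted p = 0.0047, edgeR). Lamp2 had 74.5, 79.0 and 67.7 CPM against 54.0, 47.2 and 57.9 CPM (0.47 ± 0.11, adjusted p = 0.014). In both genes all VB6 libraries lay above all vehicle libraries. The others called higher included Naglu (0.48 ± 0.13), Ap1m2 (an AP-1 adaptor subunit of epithelial cells, 0.37 ± 0.08), Fuca2 (a fucosidase, 0.36 ± 0.08) and Ctsc (0.32 ± 0.08). Those lower were Laptm5, with 3.80, 3.42 and 2.97 CPM with VB6 against 4.59, 7.52 and 6.001 CPM with vehicle (-0.83 ± 0.17), and Acp5, with 5.05, 5.20 and 4.70 CPM against 9.18, 7.40 and 8.47 CPM (-0.75 ± 0.15, adjusted p = 0.0046). No pump subunit of 9 was called. On the TPM scale 1 gene was higher (Cd63) and 2 lower. Without vehicle day 3 replicate 2 the counts were 1 higher (Cd63) and 1 lower (Acp5), without VB6 day 3 replicate 2 there were 2 higher and without VB6 day 3 replicate 1 there were 3, and Naglu lost its call when any 1 of the 6 libraries was left out.

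At days 5 and 7 many more genes were called, on the scale of the whole transcriptome. At day 5, 54 of 121 lysosome genes were higher and 29 lower with VB6 than with vehicle (31.2% and 25.5% of all genes), and on the TPM scale the split turned to 19 higher and 52 lower. At day 7, 44 were higher and 15 lower (18.6% and 17.9% of all genes), or 76 and 3 on the TPM scale, on which the median of all genes moved by -0.13 at day 5 and by 0.19 at day 7. The log2 fold changes of the lysosome genes followed the GC content of their transcripts, with a Spearman rho of 0.707 at day 5 and -0.628 at day 7 across 119 genes, which share their libraries. Genes called higher at day 5 had a median GC content of 54.7% and those called lower 44.3%. After the correction, which removes that trend by construction, rho was -0.11 at day 5 and 0.081 at day 7. Of the 54 higher calls at day 5, 32 were also called higher in the corrected fit, 2 were called lower and 19 were not called, and of the 29 lower calls 8 were called lower and 5 higher. At day 7, 22 of the 44 higher and 6 of the 15 lower calls held in it. The corrected fit called 48 of 119 lysosome genes higher and 20 lower at day 5 (33.5% and 11.4% of all genes) and 34 higher and 11 lower at day 7 (10% and 20.4%). Its median log2 fold change at day 5 was 0.09 for the lysosome genes and 0.11 for all genes, so corrected values at that day sit on an upward shift of all genes. At day 7 these medians were 0.10 and -0.04.

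**Figure D4:**
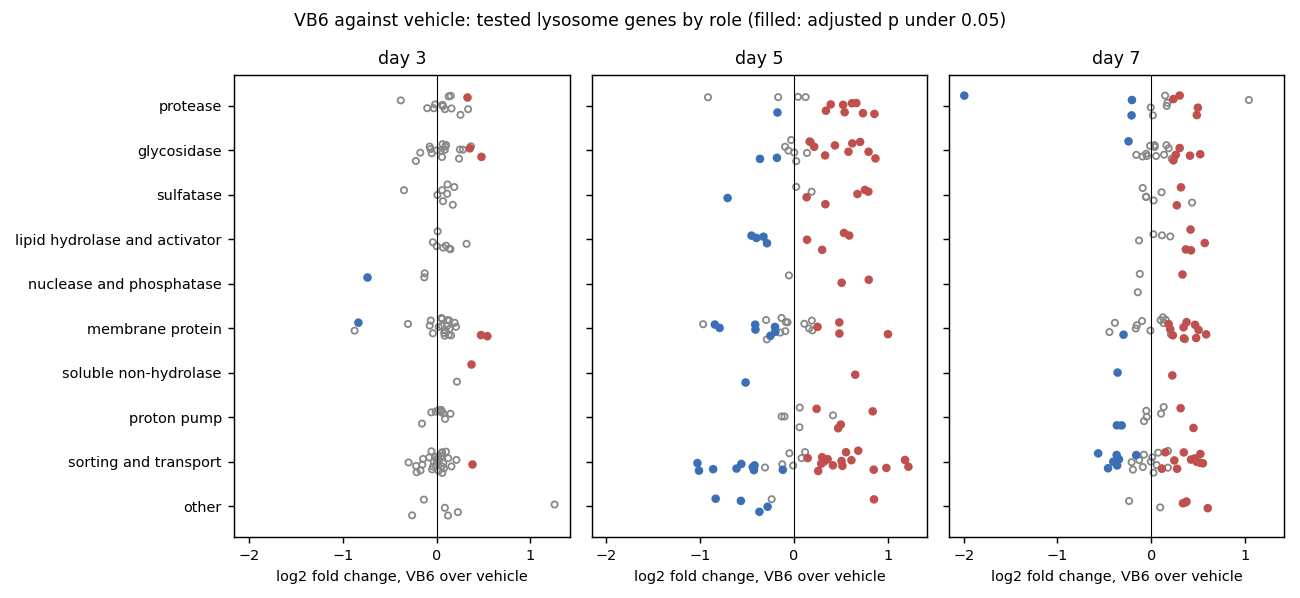
Log2 fold change of VB6 over vehicle for each of the 121 tested lysosome genes at days 3, 5 and 7, by role; filled points were called (red higher, blue lower, adjusted p under 0.05) and open points were not, and heights within a row are spread only for legibility. Day 3 has 9 filled points, day 5 has 83 and day 7 has 59; on the TPM scale the day 5 split turned from 54 higher and 29 lower to 19 and 52.

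**Figure D5:**
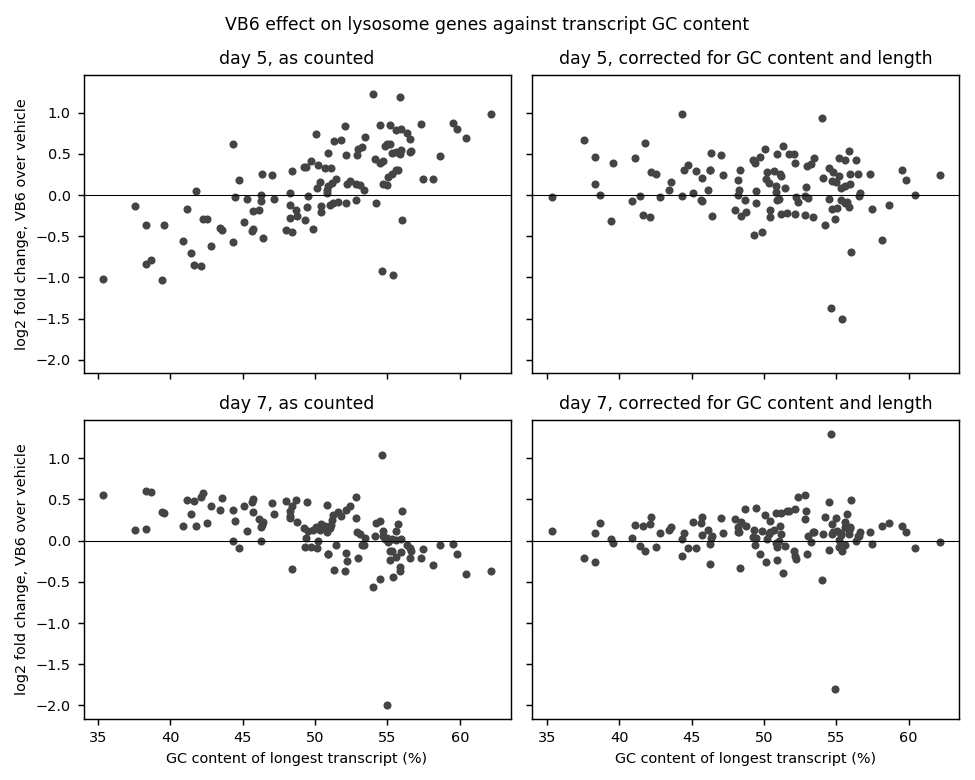
Log2 fold change of VB6 over vehicle against the GC content of the longest transcript for 119 lysosome genes, at day 5 (top) and day 7 (bottom), as counted (left) and after correction for GC content and length (right). The points slope upward at day 5 and downward at day 7 as counted, with a rho of 0.707 and -0.628, and are level after correction.

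At day 5 the proteases were mostly higher with VB6. Among 13 proteases, 8 were higher and 1 lower (7 and 0 in the corrected fit, 5 and 3 on the TPM scale), and among 18 glycosidases 9 were higher and 2 lower (10 and 2 corrected), which turned to 3 and 5 on the TPM scale. Ctsl had 1086, 1069.7 and 944 CPM with VB6 against 709, 649.6 and 659 CPM with vehicle, a log2 fold change of 0.62 ± 0.06 that was 0.98 corrected. Ctsh had 249, 252 and 224 CPM against 156, 143 and 136 CPM (0.74 ± 0.09, corrected 0.56), and Lgmn 416, 404 and 368 CPM against 269, 244 and 235 CPM (0.67 ± 0.08, corrected 0.50). In these 3 genes every VB6 library lay above every vehicle library. Ctsb (0.34, corrected 0.43), Ctsz (0.86, corrected 0.26) and Gaa (0.87, corrected 0.30) were called higher in both fits. Outside the hydrolases, Npc2 (0.65 ± 0.07, corrected 0.59), the pump subunit Atp6v0c (0.84 ± 0.05, corrected 0.50), the light chain Cltb (1.22 ± 0.11, corrected 0.93) and the adaptor subunit Ap1s1 (1.19 ± 0.08, corrected 0.54) were called higher in both fits. Membrane proteins had 4 higher and 7 lower calls of 23 (4 and 11 corrected, 0 and 15 in TPM). Laptm4b, a relative of Laptm4a, had 129, 126 and 119 CPM with VB6 against 159.6, 165 and 173 CPM with vehicle (-0.41 ± 0.06, corrected -0.44), and Cd164, a sialomucin, had -0.84 (corrected -0.25). The call of Lamp2 did not hold, with -0.79 as counted and 0.00 corrected.

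At day 7 membrane proteins and lipid enzymes were more often called higher than lower with VB6. Of 23 membrane proteins 10 were higher and 1 lower with VB6 (10 and 1 in the corrected fit as well), and of 8 lipid hydrolases and activators 4 were higher and 0 lower (4 and 0). Lamp1 had 708, 699 and 623 CPM with VB6 against 527, 551 and 520.2 CPM with vehicle, a log2 fold change of 0.35 ± 0.05 (adjusted p = 1.9e-05) that was 0.36 corrected. Lipa had 89.7, 83.2 and 77.3 CPM against 53.7, 57.8 and 56.7 CPM (0.57 ± 0.07, corrected 0.28), with no overlap between the groups. Tpp1 had 144, 148 and 130.4 CPM against 99.3, 101 and 98.9 CPM (0.50 ± 0.06, corrected 0.38). Other genes called higher in both fits included Lgmn (0.30, corrected 0.36), Ctsc (0.49, corrected 0.19), Ctns (0.47, corrected 0.40), Lamp2 (0.59, corrected 0.21), Atp6v0a1 (0.45, corrected 0.27), Atp6ap1 (0.31, corrected 0.34) and Hyal1 (a hyaluronidase, 0.52, corrected 0.55). Npc2 was lower, with 201, 182 and 187 CPM with VB6 against 239, 255 and 236 CPM with vehicle (-0.36 ± 0.07, corrected -0.40), as was Cltb (-0.57, corrected -0.48). The count of lower calls went to 7 without VB6 day 7 replicate 2.

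Npc2 and Cltb thus changed in opposite directions at days 5 and 7, and so did others. The test of whether the VB6 effect differs between the 3 days called 89 of 121 lysosome genes, against 60% of all genes, and the corrected fit called 68 of 119, or 57.1%, against 50.5% of all genes. Both fits called 54 of these genes. Of the 121 genes, 12 were higher at day 5 and lower at day 7 (9.92%, against 14.99% of all genes), 26 were lower at day 5 and higher at day 7 (21.49%, against 13.22%), 7 were higher at both (5.79%, against 0.78%) and 0 were lower at both (against 0.37%). In the corrected fit the same 4 classes held 10 of 119 genes (8.4%, against 14.56% of all genes), 11 (9.24%, against 3.6%), 7 (5.88%, against 1.39%) and 0 (against 0.63%). The comparisons of days 5 and 7 share no library.

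Averaged over the 3 days, every lysosome gene called as counted was higher with VB6, though not on each day. There were 41 higher and 0 lower calls by edgeR (3 lower at an unadjusted p under 0.05, and 0 lower by DESeq2), where 6.58% of all genes were called higher and 5.16% lower, and the median log2 fold change was 0.09, against 0.02 for all genes. The hydrolases and activators accounted for 28 of the 41, with 28 of 50 tested called, among them 10 of 13 proteases and 11 of 18 glycosidases. In the corrected fit 34 of the 41 held, with 40 higher and 1 lower in all (9.78% and 5.41% of all genes), and on the TPM scale 14 were higher and 1 lower. The mean hides differences between days. Npc2 (0.17) and Atp6v0c (0.18) were called higher in it, though both were called lower at day 7 in both fits. Of the 41 genes, only Litaf had all VB6 libraries above all vehicle libraries at each day. The mean effect had a Spearman rho with GC content of 0.37 as counted and -0.064 corrected. The sizes were small. Ctsh averaged 0.41 ± 0.05 on the log2 scale (adjusted p = 4e-05), Naglu 0.37 ± 0.07, Lgmn 0.32 ± 0.05, Smpd1 0.28 ± 0.06, Ctsz 0.26 ± 0.04, Ctsl 0.23 ± 0.04, Ctsb 0.22 ± 0.04 and Litaf 0.22 ± 0.04. At day 7 Ctsl had 1132, 1068 and 957 CPM with VB6 and 1044, 1128 and 995 CPM with vehicle, groups that overlapped as counted, and the corrected fit called it lower at that day.

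Lists of genes that act around the lysosome, outside the 135, are read against the all-gene shares given above for each comparison. Of 5 transcription factors (the family of TFEB, and its antagonist Zkscan3), 3 were higher and 2 lower in vehicle at day 3 than in ES, and 2 were higher and 1 lower at day 7 than at day 3. Tfeb had log2 fold changes of -2.58 and then 1.66, while Tfe3, its relative, had 0.68 and then -0.65. With VB6 none of the 5 was called at day 3 or in the mean over days, 2 were higher and 1 lower at day 5, and 3 were higher and 0 lower at day 7, without correction. Of 12 tested V-ATPase subunits outside the 135, 6 were higher and 1 lower in vehicle at day 7 than at day 3, and of 20 other lysosomal proteins 12 were higher and 4 lower, among them Tmem106b at 1.08. Of 22 autophagy genes 12 were higher and 4 lower, with Gabarap (a protein of autophagosome membranes) at 1.25, and of 20 genes of endosomes and the HOPS tethering complex 6 were higher and 3 lower, with a median of -0.03. In contrast, of 18 genes of the mTORC1 growth pathway and its lysosomal Ragulator scaffold 1 was higher and 8 lower. With VB6 at day 3 the calls on these lists were Rragd (0.24), Atp6v1g1 (0.28), Tmem106b (0.42) and Gabarap (0.24) higher, and Atg16l1 (-0.19) and Ulk1 (-0.27) lower.

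Markers of several cell types rose over the same interval as the lysosome genes. All 8 markers of visceral endoderm were higher in vehicle at day 7 than at day 3, and their summed CPM was 48.7 to 54.6 in ES, 717 to 815 at day 3, 2735 to 3432 at day 5 and 4908 to 5282 at day 7. With VB6 the sum was 783 to 845 CPM at day 3, 2984 to 3430 at day 5 and 6235 to 7765 at day 7, the last with no overlap with vehicle. Of the 8, 3 were called higher and 0 lower with VB6 at day 3, 5 and 0 at day 5, 4 and 2 at day 7, and 7 and 0 in the mean over days. Among all genes 1.49%, 31.2%, 18.6% and 6.58% were called higher in the same order, and 2.77%, 25.5%, 17.9% and 5.16% lower. All VB6 calls on the marker lists are without correction, and at days 5 and 7 the groups differed in fragment length. At day 7 the means of Afp, Apob, Cubn and Dab2 were higher with VB6, and those of Amn, Apoa1, Rbp4 and Ttr lower. Of 7 markers of parietal endoderm, 6 were higher and 1 lower in vehicle at day 7 than at day 3, 3 were lower with VB6 at day 3, and 5 were higher in the mean. Of 5 tested fibroblast markers 4 were higher and 1 lower in vehicle at day 7 than at day 3, and the sum of the 6 on the list was 418 to 592 CPM at day 7 against 8.001 to 10.1 CPM at day 3. Of 4 tested trophoblast markers 3 were higher and 1 lower, and the sum of the 7 on the list was 50.02 to 71.6 CPM at day 7 against 15.8 to 18.2 CPM at day 3. In ES that sum was 56.2 to 68.9 CPM, which overlapped with day 7. Krt7 alone had a mean of 35.8 CPM in vehicle at day 7. The part that the share of any of these cells has in the lysosome values was not tested.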

How the data were processed

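The authors deposited 3 tables of 78317 gene rows for the 21 libraries. In the deposited expected counts the authors gave estimated reads of each gene, not normalized. Of the values in a library 26.9 to 30.5% had decimals, and all were rounded before testing. The authors also deposited TPM, and FPKM, used here only for effective length. The build was mm10, per the submitters' processing notes; the sources used here name no aligner, counter or annotation. Per the labels, total RNA was taken up in TRIzol, yet a step of small RNA enrichment is also mentioned, which leaves the library type uncertain. Gene positions and GC content came from GENCODE M21.

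The 135 genes, their roles and the lists were chosen with earlier results of these data known. Genes passing filterByExpr over the 7 groups, 18901 in all, were fitted with edgeR 4.0.16 (R 4.3.3) on all 21 libraries together, with 1 coefficient for each group and TMM factors. A call needs an adjusted p (Benjamini-Hochberg, all tested genes) under 0.05, and each SE is derived from the F statistic. CPM is on TMM-scaled library sizes. The plan assumed whole counts; its test was kept for rounded values. Implied fragment length is the median, over 578 genes with 1 transcript, of transcript length minus effective length. The correction fits per library a robust smooth curve over GC content and another over effective length (splines of 5 degrees of freedom) and enters it as an offset, for 15279 genes. The edgeR fit without correction was tested on simulated data, for VB6 against vehicle at day 3 only. Neither the correction nor the test between days was simulated. Named genes are a fixed set of well-known members plus, per comparison, the 6 highest and 6 lowest called log2 fold changes that reach 1 CPM in the mean of the higher group and whose libraries do not overlap. Some genes that the rule selects are not reported here. In comparisons of groups unlike in fragment length, members of the fixed set are described as changed only where the corrected fit called the same direction, a choice made after the data were seen. Alternatives were limma 3.58.1 on log2(TPM + 1), DESeq2 1.42.0 and its size factors, no TMM factors, no filter, fewer libraries, a replicate block and leaving out each library. Entpd4 and Entpd4b are near-identical copies, so reads may be split between them.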

Additional observations from a re-analysis of the deposited data

Results flagged for a closer look

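The VB6 effect differed between days 3, 5 and 7 for 89 of the 121 tested lysosome genes by the edgeR test of that difference, against 60% of all genes, and the fit corrected for GC content and length called 54 of these 89. The vehicle libraries of day 5 and the VB6 libraries of day 7 had shorter implied fragments than the rest. For these genes the day of the treatment and fragment length therefore cannot be told apart, and the correction removes only a trend over GC content and length. Of the genes named by rule in a VB6 comparison and reported here, 23 had an adjusted p under 0.05 for the difference between days. The rule picked them for large VB6 effects in the same libraries, so low p-values in this test were favoured in advance.

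Among the sorting proteins these adjusted p were 1.31806e-10 for Ap1s1, 2.29668e-08 for Ap1s2, 1.91606e-07 for Ap1s3, 0.0036233 for Ap1m2, 6.49223e-10 for Ap3m1, 4.32363e-11 for Clta, 2.3846e-09 for Cltb, 4.98953e-07 for Gga1 and 0.000136231 for Nagpa. Among the hydrolases they were 4.65411e-09 for Ctsz, 1.54525e-05 for Gaa, 0.0112399 for Fuca2, 0.0123159 for Hyal1, 4.96748e-05 for Naglu, 5.56266e-07 for Lipa and 5.51786e-06 for Acp5. Among the others they were 2.37768e-09 for Cd164, 0.000119092 for Cd63, 1.88021e-08 for Lamp2, 0.00169838 for Laptm5, 0.0284199 for Abcb9, 2.59685e-11 for Atp6v0c and 7.71705e-09 for Dmxl1. In the corrected fit 15 of the 23 were called for the difference between days, Ap1s2, Ctsz, Dmxl1, Fuca2, Gaa, Lipa and Nagpa were not, and Abcb9 had no value. The corrected log2 fold changes were 0.00 at day 5 and 0.21 at day 7 for Lamp2, 0.50 and -0.13 for Atp6v0c, and 0.93 and -0.48 for Cltb.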

How the results depend on the processing

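Of 3024 values of named genes under alternatives other than leaving out a library, 2883 kept their direction and their side of the threshold, and of 2604 with 1 library left out 2480 did. Genes were named partly because they were called, some in the corrected fit too, so part of this agreement was set by that choice. Over all lysosome genes, 32 of the 54 higher and 8 of the 29 lower calls with VB6 at day 5 held in the corrected fit. The following reversed, and beyond the construction of each scale the cause was not tested. On the TPM scale the log2 fold change was -0.20 for Abcb9, -0.22 for Atp6v0a1 and -0.15 for Igf2r with VB6 at day 5, 0.0410 for Gusb with VB6 at day 7, 0.0335 for Atp6v1h, 0.0251 for Laptm4b and 0.0265 for M6pr between VB6 days 5 and 3, 0.0223 for Cltb and 0.11 for M6pr between VB6 days 7 and 5, and 0.15 for Npc2 between vehicle days 5 and 3. With the GC and length correction, without and with the replicate block, it was 0.0810 and 0.0818 for Ap1s1 at day 7, 0.22 and 0.22 for Atp6v1h between VB6 days 5 and 3, 0.14 and 0.14 for Dmxl1 at day 5, 0.0211 and 0.0205 for Dmxl1 between vehicle days 7 and 5, and 0.00375 and 0.00351 for Lamp2 at day 5.

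Counts moved by over 1.5 times as follows. Higher calls with VB6 at day 3 were 13 corrected, 12 corrected with the replicate block, 15 with only the groups compared, 1 on the TPM scale and 11 with DESeq2. On the TPM scale the counts were 19 higher and 52 lower for VB6 at day 5, 76 and 3 at day 7, 14 and 1 for the mean over days (1 lower corrected too), 35 and 42 for vehicle day 7 against day 5, and lower calls were 9 for vehicle day 7 against day 3, 7 for day 5 against day 3, 3 for VB6 day 5 against day 3 and 3 for VB6 day 7 against day 5. Log2 ratios of summed values moved when CPM was summed in place of TPM, to 1.12 (hydrolases), 0.81 (membrane) and 0.40 (sorting) for vehicle day 7 against day 3, to 0.81, 0.37, 0.27 and, for the pump, 0.20 for VB6 day 5 against day 3, and to 0.0436 (pump) and 0.0224 (sorting), both reversed, for VB6 against vehicle at day 3. Without each class's most abundant gene they were 0.88 (membrane) and 0.59 (sorting) for vehicle day 7 against day 3, 1.01 (hydrolases), 0.48 (membrane), 0.38 (pump) and 0.47 (sorting) for VB6 day 5 against day 3, and 0.0710 (membrane) for VB6 against vehicle at day 3.

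With 1 library left out, higher and lower calls ran from 1 to 8 and 1 to 2 for VB6 at day 3, 46 to 52 and 25 to 29 at day 5, 37 to 45 and 7 to 13 at day 7, and 34 to 41 and 0 to 0 for the mean. They ran from 38 to 41 and 48 to 50 for vehicle day 3 against ES, 81 to 87 and 12 to 16 for vehicle day 7 against day 3, 66 to 72 and 20 to 24 for day 5 against day 3, 57 to 62 and 21 to 23 for day 7 against day 5, 70 to 74 and 7 to 10 for VB6 day 5 against day 3, 62 to 66 and 13 to 17 for VB6 day 7 against day 5, and 84 to 91 for the difference between days. Summed log2 ratios for VB6 at day 3, VB6 day 5 against day 3 and vehicle day 7 against day 3 ran from -0.04 to 0.03, 1.04 to 1.05 and 1.30 to 1.39 (hydrolases), 0.11 to 0.16, 0.55 to 0.60 and 1.08 to 1.12 (membrane), -0.03 to 0.0072, 0.29 to 0.33 and 0.34 to 0.41 (pump) and -0.07 to -0.03, 0.36 to 0.41 and 0.52 to 0.56 (sorting).

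Replicate numbers did not pair the samples: over 63 same-numbered pairs the correlation of deviations had a median of 0.0082 and lay between -0.25 and 0.29, with 5 over 0.1. With the replicate block 339 of 342 named values kept their call, and the counts were 8 higher and 2 lower for VB6 at day 3, 53 and 29 at day 5 and 42 and 14 at day 7. Depth limits the genes near 1 CPM.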
